A study of Homo sapiens with 12 samples.

Results

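RNA-seq of H1 cells kept in static culture was compared between Day 16 and Day 12 of differentiation. H1 is an established human embryonic stem cell line with a wild-type genotype. The comparison was defined by the sample labels alone and held 4 of the 12 libraries of the series: 2 NP-IWP2 libraries on Day 12 and 2 NP-IWP2 libraries on Day 16. All cells of the series were driven toward mesendoderm with the WNT activator CHIR99021 in DF medium, followed by insulin. NP-IWP2 cells were not passaged, received the WNT inhibitor IWP2 from Day 2 to Day 4 and then stayed in the same wells in DF medium. P-DF cells, used below to show where static culture differed, were dissociated and replated on Day 2 and received no IWP2. Per the paper, passaged cells were split on replating, and the ROCK inhibitor Y27632 was used in its later differentiations. P-IWP2 cells were passaged and also received IWP2. The wells were not sorted, so each library holds RNA of all cells in a well. In such bulk RNA, fewer cells of a type and less RNA per cell cannot be told apart. The labels number the 2 libraries of a day without saying whether they came from separate differentiations. The p-values rest on the spread between libraries of the same group, estimated over the 10 libraries of the model below. This spread may be technical.

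Mesendoderm is the common progenitor of mesoderm, which gives rise to heart muscle, epicardium, stroma and endothelium, and of endoderm, which gives rise to liver and gut. Inhibition of WNT signaling after mesendoderm formation favors the cardiac fate, but cells left in one well can also take other fates. Immature heart muscle first uses atrial or early isoforms of contractile proteins, and ventricular muscle later gains others, such as the slow myosin heavy chain and the ventricular regulatory light chain. Fetal liver cells secrete alpha-fetoprotein early and albumin in growing amounts as they develop.

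Between 16073679 and 19079533 reads were counted on genes in the 4 static libraries, and between 14885589 and 19176239 over the series. Mitochondrial genes took 9.37% to 10.4% of the static counts. Levels are given as FPKM, the count scaled to exon length and to the library total, which allows levels of different genes to be compared. Changes are given as the log2 fold change (log2FC) of Day 16 over Day 12 with its standard error (SE) from edgeR's quasi-likelihood test on the counts, and a gene was called when its Benjamini-Hochberg adjusted p was under 0.05. The model held 10 libraries in 5 groups, because the Day 12 P-IWP2 group, which has no part in the comparison, has 2 libraries that differ strongly: their log2 levels differed with an SD of 0.9 across genes, against 0.212 for static Day 12 and 0.28 for static Day 16.

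Of 19145 genes tested, 3581 (18.7%) were called, 1934 (10.1%) higher and 1647 (8.6%) lower on Day 16. With all 12 libraries in the model, 386 of 19505 genes (1.98%) were called, 171 (0.877%) higher and 215 (1.1%) lower. With total counts in place of TMM as the scaling, 1293 genes were higher and 2231 lower, since that scaling moved the median log2FC of all genes from 0.003 to -0.11. The changes below are those after TMM scaling, relative to that median, whereas FPKM carry the total count scaling. The days separated without overlap in a large share of all genes: in CPM (counts relative to library size) 65.6% of the tested genes had the Day 16 libraries both above (24.6%) or both below (41.0%) the Day 12 libraries.

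The genes were read in 30 lists of lineage markers and pathways with 505 different genes, of which 451 passed the filter on low counts. In these lists 113 genes were called higher and 55 lower, and 17 and 6 with all 12 libraries in the model.

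**Figure D1:**
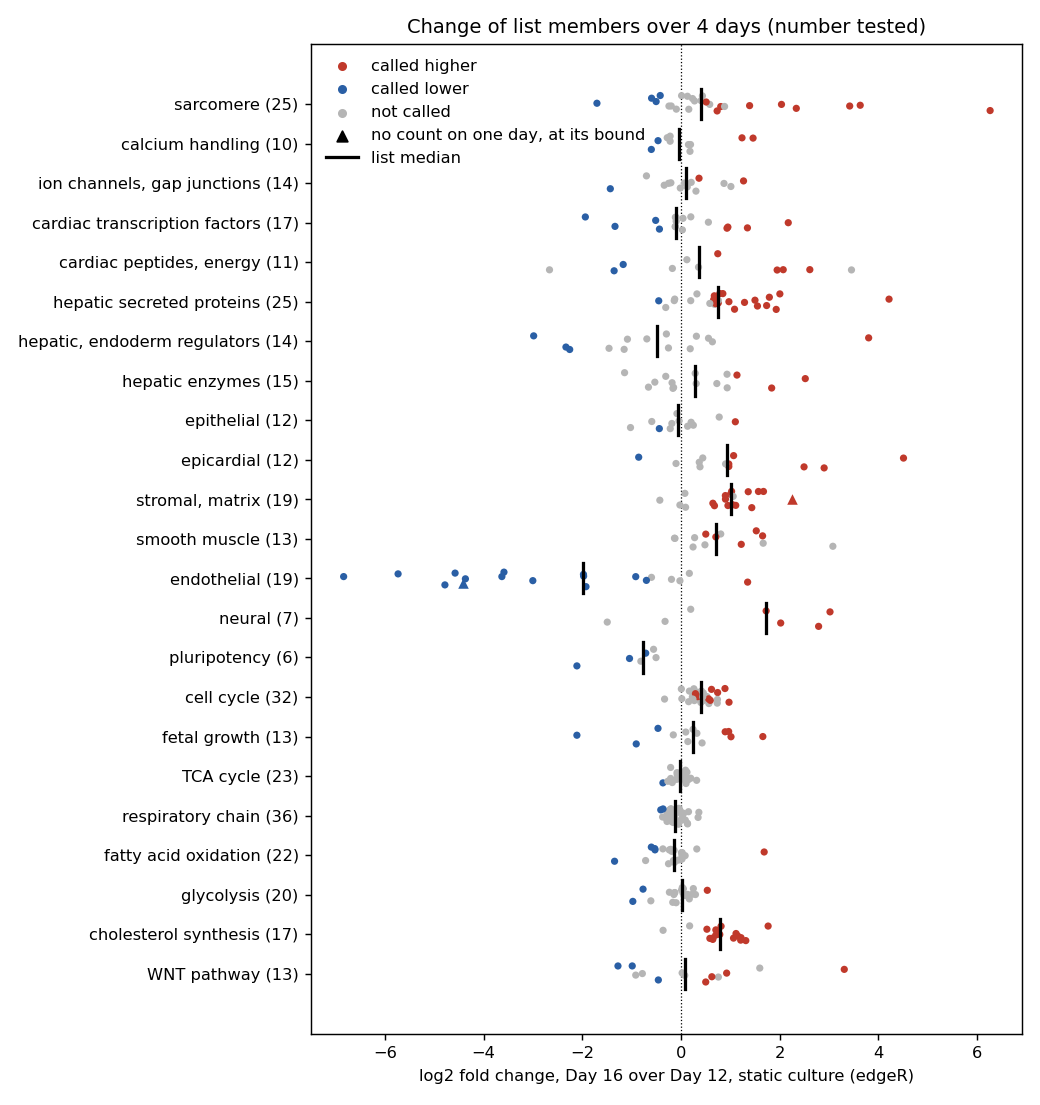
The horizontal axis gives the log2 fold change of Day 16 over Day 12 in static culture, and each point is 1 tested member of the list named on the vertical axis; red points were called higher, blue points lower, grey points neither, black bars are list medians and triangles are genes without a count on 1 of the days, drawn at the bound set by 3 counts per library. The endothelial list has its median at -1.98, and the stromal, epicardial, cholesterol and hepatic secreted lists have theirs between 0.76 and 1.00. The neural list has the highest median, 1.72 over 7 tested genes, and this rank depended on the filter. Without the filter on low counts its median was 0.129 over 12 genes.

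The cardiac markers of the culture were strongly expressed on both days, with a shift among isoforms. MYH6 encodes the alpha myosin heavy chain, which marks atrial and early muscle (chromosome 14, 23381982 to 23408273, hg38). It stood at 1613 and 1396 FPKM on Day 12 and at 436 and 417 on Day 16, a 3.26-fold fall (log2FC -1.70 ± 0.25, adjusted p = 0.000718). MYH7, its neighbor on chromosome 14 (23412740 to 23435660), encodes the slow beta heavy chain of ventricular muscle. Its level went from 54.4 and 37.9 FPKM to 695 and 351, a 12.4-fold rise (log2FC 3.63 ± 0.32, adjusted p = 3.06e-05). The days did not overlap for either gene, as in 65.6% of all tested genes in CPM. MYH6 was the more abundant of the pair in each Day 12 library, and on Day 16 it remained so only in replicate 2. MYL2, the ventricular regulatory light chain, was at 0.28 and 0.34 FPKM and then at 38.7 and 4.52 (log2FC 6.26 ± 1.02, adjusted p = 0.00153). The Day 16 libraries thus differed from each other in MYL2, although both lay above Day 12. MYL7, the atrial light chain, fell from 2956 and 2637 FPKM to 1836 and 1573 (log2FC -0.60 ± 0.14, adjusted p = 0.0136).

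Other heart muscle markers changed by less than the replicate error allowed to call. TNNT2, cardiac troponin T, was at 111 and 97.1 FPKM on Day 12 and at 74.8 and 87.8 on Day 16 (adjusted p = 0.263). NKX2-5, the early cardiac transcription factor, was at 100.4 and 91.8 and then at 88.7 and 92.6 FPKM (adjusted p = 0.883). TTN, the giant spring protein of the sarcomere, gave 32.5 and 27.6 against 31.1 and 34.4 FPKM (adjusted p = 0.326). The FPKM of the days overlapped in NKX2-5 and TTN, and in TNNT2 both Day 16 values were below Day 12.

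Among all 25 sarcomere genes, 9 were called higher and 4 lower, with a median log2FC of 0.40 against 0.003 for all genes. Besides MYH7 and MYL2, LMOD2, which lengthens thin filaments, went from 3.88 and 2.77 to 46.1 and 18.7 FPKM (log2FC 3.42 ± 0.37, adjusted p = 9.66e-05). CSRP3 and TCAP, proteins of the Z-disc, and ANKRD1, a stress-responsive repeat protein, were also called higher: CSRP3 from 21.1 and 16.4 to 142 and 28.1 FPKM (adjusted p = 0.016), TCAP from 15.9 and 13.0 to 79.6 and 28.1 (adjusted p = 0.00425) and ANKRD1 from 317 and 228 to 920.0 and 380.3 (adjusted p = 0.0403). In MYL2, MYH7, in these 4 genes and in ACTC1, cardiac actin, which had 4104 and 1807 FPKM on Day 16 and was not called (adjusted p = 0.122), Day 16 replicate 1 was well above replicate 2. NEBL and MYPN, both Z-disc proteins, were called lower together with MYH6 and MYL7. CSRP3 and ANKRD1 were not called without Day 12 replicate 1, Day 12 replicate 2 or Day 16 replicate 1, and without the last the log2FC of ANKRD1 was 0.54 (adjusted p = 0.458). TCAP was not called without Day 12 replicate 2. Without Day 16 replicate 1, 4 sarcomere genes were called higher and 4 lower, without Day 12 replicate 1, 4 and 1, and without Day 12 replicate 2, 3 and 1. MYH7, MYL2, LMOD2 and MYH6 were called in each of these fits and also without Day 16 replicate 2.

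The called genes of excitation included rises and falls. PLN, which restrains the calcium pump of the sarcoplasmic reticulum, rose from 74.9 and 69.1 to 177 and 135 FPKM (log2FC 1.24 ± 0.17, adjusted p = 0.000554). CASQ2, the calcium store of that compartment, rose from 1.04 and 1.11 to 3.59 and 1.78 FPKM (adjusted p = 0.0177), whereas TRDN and HRC of the same compartment fell (adjusted p = 0.015 and 0.00899). The pump itself, ATP2A2, was at 72.7 and 66.3 and then at 71.8 and 74.0 FPKM (adjusted p = 0.314). So 2 of 10 calcium handling genes were called higher and 2 lower, against 1 and 0 without either Day 12 library, 1 and 2 without Day 16 replicate 1 and 2 and 0 without Day 16 replicate 2. CASQ2 was called in the last of these fits and in none of the other 3, and without Day 16 replicate 1 its log2FC was 0.78 (adjusted p = 0.232). GJA1, the main gap junction protein of working heart muscle, rose in both Day 16 libraries, from 28.7 and 28.3 to 64.6 and 62.3 FPKM (log2FC 1.27 ± 0.09, adjusted p = 7.99e-06), and the libraries of each day were close together. KCNIP2, a subunit of the transient outward potassium channel, fell from 20.8 and 19.02 to 7.51 and 6.06 FPKM (log2FC -1.43 ± 0.24, adjusted p = 0.00163). The pacemaker channel HCN4 was at 56.8 and 65.2 and then at 43.1 and 46.0 FPKM, which was not called (adjusted p = 0.0938). Of 14 ion channel and gap junction genes tested, 2 were called higher, GJA1 and KCNH2, and 1 lower. This is 21.4%, close to the 18.7% of all tested genes. With all 12 libraries in the model 0 were called higher and 0 lower, with 3 and 0 at an unadjusted p under 0.05.

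Cardiac transcription factors showed a similar division. TBX3 and TBX2, repressors that mark the conduction system and the atrioventricular canal, fell. TBX3 went from 10.5 and 8.58 to 2.18 and 2.42 FPKM (log2FC -1.94 ± 0.13, adjusted p = 4.63e-06) and TBX2 from 51.0 and 54.1 to 17.2 and 21.4 (log2FC -1.34 ± 0.14, adjusted p = 8.43e-05). HEY2 and IRX4, which mark ventricular muscle, rose. HEY2 went from 5.50 and 6.07 to 12.0 and 15.3 FPKM (log2FC 1.34 ± 0.27, adjusted p = 0.00518) and IRX4 from 20.5 and 20.2 to 33.9 and 37.8 (log2FC 0.93 ± 0.17, adjusted p = 0.00298). No overlap between days was seen in these 4 genes, which were named by or after their values. In CPM, 65.6% of all tested genes had no overlap. SHOX2, a factor of the sinus node, also rose, from 0.50 and 1.02 to 2.34 and 4.06 FPKM (adjusted p = 0.00282). The most abundant factors, HAND1, TBX20 and GATA4, stayed uncalled, with levels from 84.7 to 159 FPKM over all 4 libraries. In all, 4 of 17 factors were called higher and 4 lower, and not all of these are named here. The list median log2FC was -0.10 against 0.003 for all genes. IRX4 was named after its values were seen. The natriuretic peptide gene NPPA rose from 13.3 and 7.69 to 59.0 and 21.1 FPKM (adjusted p = 0.0302), and NPPB was at 10.2 and 5.61 and then at 136 and 20.9 FPKM without a call (adjusted p = 0.0597). CORIN, the protease that activates these peptides, rose from 10.03 and 9.41 to 34.7 and 34.6 FPKM (log2FC 1.95 ± 0.26, adjusted p = 0.000438). CKB, the brain-type creatine kinase of early muscle, fell from 165 and 176 to 63.1 and 60.1 FPKM (log2FC -1.36 ± 0.12, adjusted p = 3.2e-05), while the muscle-type CKM was at 158 and 139 and then at 143 and 97.7 (adjusted p = 0.511).

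Over the 5 cardiac lists, 21 of 77 tested genes were called higher and 13 lower. With all 12 libraries in the edgeR model, 0 were called higher and 1, CKB, lower, with 14 higher and 5 lower at an unadjusted p under 0.05. DESeq2 called 20 higher and 12 lower.

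**Figure D2:**
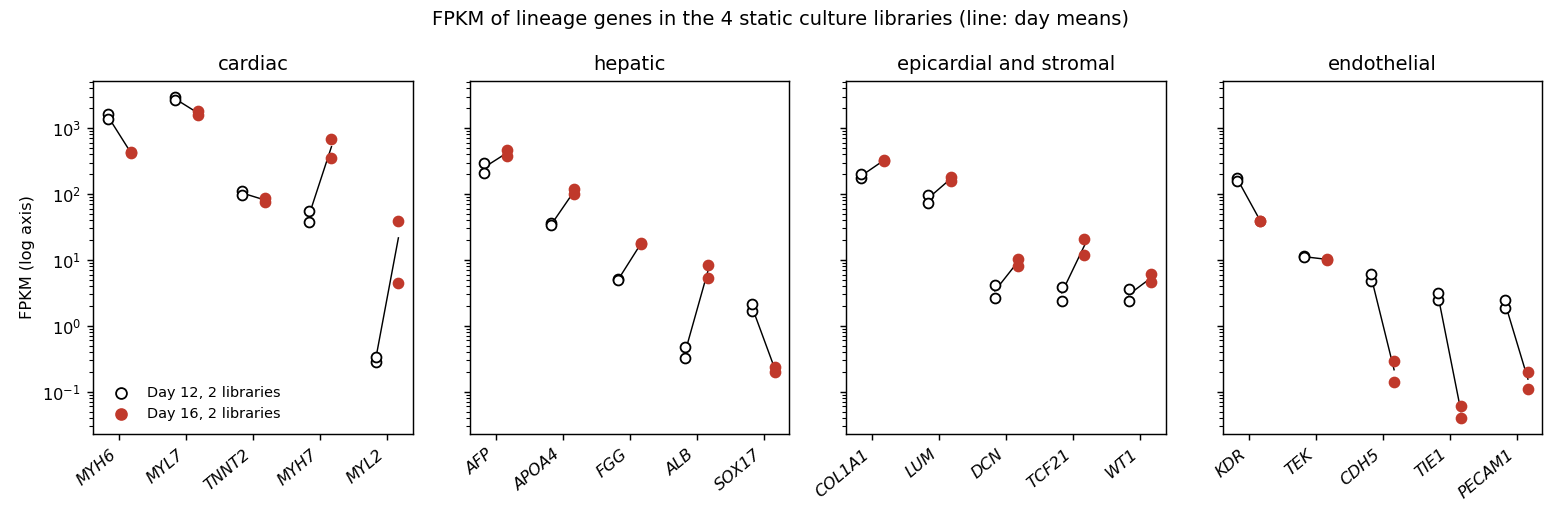
FPKM on a log axis of 20 lineage genes, with open points for the 2 Day 12 libraries, red points for the 2 Day 16 libraries and a line between the means of the days. MYL2 shows the widest gap between the Day 16 libraries (38.7 and 4.52), and CDH5, TIE1 and PECAM1 fell to between 0.04 and 0.29 while TEK stayed between 10.1 and 11.5.

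The hepatic secreted list holds plasma proteins of fetal liver and yolk sac, and which tissue their source cells resemble was not tested. Most of these genes rose. AFP, alpha-fetoprotein, was the most abundant of them, at 299 and 211 FPKM on Day 12 and at 465 and 381 on Day 16 (log2FC 0.85 ± 0.21, adjusted p = 0.0169). ALB, serum albumin, was barely detected on Day 12, at 0.33 and 0.48 FPKM, and reached 8.48 and 5.22 (log2FC 4.21 ± 0.34, adjusted p = 1.76e-05), an 18.6-fold rise. AFP thus remained far above ALB in every library. APOA4, an apolipoprotein of liver and gut, went from 35.8 and 33.4 to 121 and 99.0 FPKM (log2FC 1.79 ± 0.14, adjusted p = 7.55e-05). The fibrinogen chains lie next to each other on chromosome 4 and differed in their change: FGG rose from 5.12 and 4.99 to 17.6 and 18.0 FPKM (log2FC 1.93 ± 0.16, adjusted p = 2.94e-05), FGA from 14.6 and 12.4 to 29.8 and 31.1 (log2FC 1.29 ± 0.12, adjusted p = 0.000196) and FGB from 22.8 and 15.8 to 29.4 and 27.7 (log2FC 0.67 ± 0.19, adjusted p = 0.0362). The 3 chains had more equal levels on Day 16 than on Day 12. TTR, the thyroxine carrier, APOC3 and ITIH2 were also called higher.

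Of 25 hepatic secreted genes tested, 16 were called higher and 1 lower, with a median log2FC of 0.76, and 19 of the 26 members, the 1 below the filter included, had both Day 16 libraries above Day 12 in CPM, against 24.6% of all tested genes. The exception was APOE, a lipid carrier that many cell types make, which fell from 207 and 195 to 139 and 132 FPKM (log2FC -0.45 ± 0.12, adjusted p = 0.0231). APOA1, the protein of high-density lipoprotein, was at 114 and 87.5 and then at 130 and 103 FPKM (adjusted p = 0.167). Among 15 enzymes and carriers tested, 3 were called higher: FABP1, the liver fatty acid binding protein, from 1.58 and 1.31 to 7.31 and 8.09 FPKM (log2FC 2.52 ± 0.23, adjusted p = 3.52e-05), TDO2, which degrades tryptophan (adjusted p = 0.0054), and CPS1, the first enzyme of the urea cycle (adjusted p = 0.00314). Regulators of endoderm and liver fate did not follow: 3 of 14 were called lower and 1 higher, with a median log2FC of -0.49. SOX17, which marks definitive endoderm and also some endothelium, fell from 1.67 and 2.14 to 0.20 and 0.24 FPKM (log2FC -2.99 ± 0.43, adjusted p = 0.00176). HHEX, found in foregut endoderm and in endothelium, fell from 3.98 and 2.47 to 0.87 and 0.27 FPKM (adjusted p = 0.012), and NR5A2 fell as well. HNF4A was at 1.21 and 0.63 and then at 0.71 and 0.73 FPKM (adjusted p = 0.624). NR1H4, the bile acid receptor, was called higher from 2 counts on Day 12 against 30 on Day 16, and was not called with all 12 libraries in the model or in any of the 4 fits without 1 static library.

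The hepatic calls depended on the libraries used. Over the 3 hepatic lists, 20 of 54 genes were called higher and 4 lower, and with all 12 libraries in the model 7 were higher and 0 lower, with 17 and 4 at an unadjusted p under 0.05 and 18 and 3 by DESeq2. Without Day 12 replicate 2, 8 were higher and 2 lower, without Day 16 replicate 1, 11 and 4, and AFP, FGB and TTR were not called in either of these fits. The genes higher in both models were ALB, APOA4, FGG, FGA, APOC3, ITIH2 and FABP1. In P-DF cells ALB and AFP were at 0.16 FPKM or lower on both days.

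Promoters of 3 liver genes that were called higher are shown with a short element that part of the list holds. The letters GTTAAT, a partial site of HNF1, a liver homeobox factor, were searched on both strands in the 250 bases before the RefSeq start site (GRCh38.p14, the build of the files). They occurred in 6 of the 19 hepatic secreted genes with a window (31.6%), against 3.7% of the 12715 tested genes with one. The 200 bases before the start site of ALB (chr4:73404087-73404286, plus strand), FGA (chr4:154590743-154590942, minus strand) and FGB (chr4:154562780-154562979, plus strand) are printed 5′ to 3′ with the match in capitals, which reads ATTAAC where the match is on the other strand.
ALB: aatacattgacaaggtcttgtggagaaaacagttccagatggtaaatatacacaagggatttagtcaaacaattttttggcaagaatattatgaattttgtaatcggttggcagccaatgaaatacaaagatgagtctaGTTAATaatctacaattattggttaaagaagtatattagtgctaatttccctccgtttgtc
FGA: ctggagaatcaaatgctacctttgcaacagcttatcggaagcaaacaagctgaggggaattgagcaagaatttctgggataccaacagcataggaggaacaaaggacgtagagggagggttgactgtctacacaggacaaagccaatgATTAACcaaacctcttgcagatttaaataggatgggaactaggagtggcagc
FGB: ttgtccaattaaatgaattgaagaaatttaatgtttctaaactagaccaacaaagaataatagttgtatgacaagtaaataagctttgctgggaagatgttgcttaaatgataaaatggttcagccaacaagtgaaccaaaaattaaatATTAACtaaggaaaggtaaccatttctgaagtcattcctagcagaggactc
The match begins 61 bases before the start site in ALB, 52 bases before it in FGA and 51 bases before it in FGB. A match describes the sequence and is no measurement of binding. The other 3 genes with a match were AFP, which was called higher, F2, which was not called, and APOH, which was below the filter.

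Epicardial and stromal genes rose. TCF21, a transcription factor of epicardium and cardiac fibroblasts, went from 2.41 and 3.92 to 12.1 and 21.1 FPKM (log2FC 2.49 ± 0.27, adjusted p = 0.000149). ALDH1A2, which makes retinoic acid in the epicardium, went from 0.02 and 0.04 to 0.46 and 0.80 FPKM (log2FC 4.51 ± 0.53, adjusted p = 0.000187). WT1, the epicardial zinc finger factor, rose from 2.36 and 3.58 to 4.62 and 6.14 FPKM (log2FC 0.97 ± 0.20, adjusted p = 0.00701). BNC1, PDPN and SULF1 were called higher too, so 6 of 12 tested epicardial genes rose, and GPM6A was called lower. TBX18, the most abundant member, was at 22.2 and 38.9 and then at 28.7 and 44.8 FPKM, with overlapping days (adjusted p = 0.239). In TBX18, TCF21 and WT1, replicate 2 exceeded replicate 1 on both days.

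Of 19 stromal genes tested, 14 were called higher and 0 lower, with a median log2FC of 1.00, also with OGN at its bound. At an unadjusted p under 0.05, 1 member was lower, and DESeq2 and the total count scaling each called 1 lower, FN1 in the latter. The fibrillar collagens were the most abundant members. COL3A1 was at 401 and 383 and then at 679 and 670.1 FPKM (log2FC 0.90 ± 0.27, adjusted p = 0.0374), and COL1A1 was at 177 and 198 and then at 324 and 322 (log2FC 0.90 ± 0.15, adjusted p = 0.00188). The libraries of a day lay close together in both collagens. LUM, a proteoglycan that organizes collagen fibrils, rose from 97.6 and 73.2 to 183 and 157 FPKM (log2FC 1.11 ± 0.15, adjusted p = 0.000485). DCN, a related proteoglycan of fibroblasts, rose from 4.10 and 2.65 to 10.5 and 7.98 FPKM (log2FC 1.57 ± 0.22, adjusted p = 0.000625), and THY1, a surface protein of fibroblasts, from 2.35 and 3.15 to 8.53 and 7.57 (log2FC 1.67 ± 0.25, adjusted p = 0.000844). OGN, osteoglycin, had no count on Day 12 and 29 counts on Day 16, at least 4.75-fold higher against a limit of 3 counts per library. PDGFRA, a receptor of stromal progenitors, was at 19.5 and 22.01 and then at 17.6 and 20.2 FPKM (adjusted p = 0.93), and fibronectin, FN1, was at 239 and 222 and then at 160.5 and 156 without a call (adjusted p = 0.0531).

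Smooth muscle genes were less clear. Of 13 tested, 5 were called higher and 0 lower, with 9 and 0 at an unadjusted p under 0.05 and 6 and 0 by DESeq2, but the number called higher was 2 with total counts, and 0, 1, 1 and 4 without Day 12 replicate 1, Day 12 replicate 2, Day 16 replicate 1 and Day 16 replicate 2. DES, the muscle intermediate filament, rose from 35.2 and 43.5 to 87.2 and 82.0 FPKM (log2FC 1.22 ± 0.25, adjusted p = 0.00601). DES rose more in P-DF cells (interaction -2.16), and its rise alone does not mark smooth muscle. CNN1, calponin, rose from 30.6 and 24.3 to 111 and 31.8 FPKM (adjusted p = 0.0485), a rise that was not called without Day 12 replicate 1, Day 12 replicate 2 or Day 16 replicate 1. TAGLN went from 28.4 and 22.3 to 103 and 43.8 FPKM and ACTA2 from 122 and 96.2 to 219 and 131, both without a call (adjusted p = 0.0632 and 0.387). MYH11, the myosin of differentiated smooth muscle, stayed at 0.37 FPKM or lower. Over the epicardial, stromal and smooth muscle lists, 25 of 44 genes were called higher and 1 lower. The model of all 12 libraries called 3 higher, ALDH1A2, PDPN and LUM, and 0 lower, with 16 higher and 0 lower at an unadjusted p under 0.05 and 24 and 2 by DESeq2.

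Most endothelial genes fell, several to near the limit of detection. CDH5, the cadherin of endothelial junctions, went from 4.73 and 6.05 FPKM on Day 12 to 0.14 and 0.29 on Day 16, 23.9-fold lower (log2FC -4.58 ± 0.31, adjusted p = 4.63e-06). PECAM1, the platelet endothelial adhesion molecule, went from 1.84 and 2.50 to 0.20 and 0.11 FPKM (log2FC -3.63 ± 0.33, adjusted p = 5.12e-05). TIE1, an orphan receptor of endothelium, went from 2.42 and 3.10 to 0.04 and 0.06 FPKM (log2FC -5.73 ± 0.37, adjusted p = 6.64e-06). Both Day 16 libraries were far below both Day 12 libraries in each of the 3 genes. CLDN5, the tight junction claudin of endothelium, had 125 counts on Day 12 and 0 on Day 16, at least 21.5-fold lower against 3 counts per library, and ROBO4 had 152 counts against 1. ESAM, EMCN and ERG were 27.5-fold, 20.7-fold and 8.02-fold lower. The receptor KDR, which early cardiac mesoderm also expresses, was much more abundant and fell from 177 and 156 to 39.3 and 39.2 FPKM (log2FC -1.97 ± 0.17, adjusted p = 2.41e-05).

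In all, 14 of 19 endothelial genes were called lower and 1, NPR3, a natriuretic peptide receptor of endocardium, higher at 0.41 FPKM or less. The median log2FC was -1.98, also with CLDN5 at its bound. Not every member of the list fell. TEK, the angiopoietin receptor, was at 11.5 and 10.9 and then at 10.3 and 10.1 FPKM (adjusted p = 0.958), FLT1, a receptor of vascular growth factor, was at 5.60 and 6.13 and then at 5.37 and 4.05 (adjusted p = 0.569), and NFATC1, an endocardial factor, was at 3.50 and 3.70 and then at 3.72 and 3.75 (adjusted p = 0.476). PLVAP fell by less than the junction genes, from 18.0 and 26.2 to 11.8 and 13.3 FPKM (adjusted p = 0.0294). Without any 1 of the 4 static libraries, 10 or 11 endothelial genes were called lower. With all 12 libraries in the model, 1, CLDN5, was called lower and 0 higher, with 12 and 0 at an unadjusted p under 0.05, and DESeq2 called 12 lower and 0 higher.

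Blood cells left little trace on either day. PTPRC, HBG1 and HBA1, which define leukocytes and red cells, were listed at 0.01 FPKM or lower in every static library, and 12 of the 15 blood genes did not pass the filter. CD34 and TAL1, which blood progenitors share with endothelium, fell from 1.21 and 1.44 to 0.07 and 0.11 FPKM and from 0.44 and 0.50 to 0.04 and 0.04 (adjusted p = 8.11e-05 and 0.00209), and RUNX1 was called higher.

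Among the genes with the largest changes over the transcriptome were several of endothelium. Genes with a symbol, a mean of at least 1 FPKM on either day, calls in the 10-library and the 12-library model and no overlap between days numbered 340, of which 152 rose and 188 fell. The 12 that fell furthest were FCN3, CLDN5, COX17P1, FLT4, ESM1, OIT3, CLEC1B, IGKC, STAB1, MRC1, OR7E13P and LCN15. FLT4 is the receptor of lymphatic growth factors and ESM1 a secreted product of sprouting endothelium. OIT3, a gene of liver sinusoidal endothelium, was the most abundant of the 12, at 31.1 and 38.6 FPKM on Day 12 and 0.66 and 1.32 on Day 16 (log2FC -5.05 ± 0.29, adjusted p = 2.14e-06). STAB1, a scavenger receptor of sinusoidal endothelium, went from 1.08 and 1.29 to 0.04 and 0.05 FPKM (log2FC -4.48 ± 0.32, adjusted p = 7.28e-06), and MRC1, the mannose receptor of macrophages and sinusoids, from 1.30 and 1.53 to 0.06 and 0.06 (log2FC -4.40 ± 0.48, adjusted p = 9.78e-05). FCN3, a lectin of liver and lung, had 147 counts on Day 12 and 0 on Day 16, at least 25.2-fold lower. COX17P1 and OR7E13P are pseudogenes, and reads of a parent gene or relatives may be split with them.

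The 12 largest rises were ALB, GRID1, BDKRB1, HRK, PHLDA2, INHBA, GPNMB, EGR3, KCNE4, HSPB3, B3GALT2 and ADCY5. HSPB3, a small heat shock protein of muscle, went from 7.59 and 7.47 to 58.0 and 49.3 FPKM (log2FC 2.95 ± 0.17, adjusted p = 2.21e-06). KCNE4, a potassium channel subunit, went from 3.94 and 3.10 to 28.2 and 23.9 FPKM (log2FC 3.00 ± 0.17, adjusted p = 2.14e-06). INHBA, which encodes the activin A subunit, went from 0.54 and 0.67 to 8.06 and 4.24 FPKM (log2FC 3.48 ± 0.37, adjusted p = 8.76e-05). EGR3, an immediate early gene, went from 1.21 and 1.00 to 7.15 and 9.46 FPKM (log2FC 3.01 ± 0.28, adjusted p = 3.52e-05). These 4 genes belong to no 1 lineage list. That their days do not overlap follows from the rule that chose them.

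Of 12 epithelial genes tested, CLDN6 was called higher and 1 lower, which is 16.7% against 18.7% of all tested genes. EPCAM was at 9.03 and 5.86 and then at 4.96 and 4.15 FPKM (adjusted p = 0.0675). For gut, 7 of 11 markers did not pass the filter, and edgeR called 0 of the 4 tested, with 1 lower at an unadjusted p under 0.05 and 0 calls by DESeq2. These 4 genes are too few to compare with the share called among all genes. POU5F1 and NANOG, which define pluripotent cells, were at 0.04 FPKM or lower. LIN28A, an RNA-binding protein of stem cells and early embryos, fell from 16.1 and 18.7 to 3.97 and 3.43 FPKM (log2FC -2.11 ± 0.26, adjusted p = 0.000221), and 3 of the 6 tested pluripotency genes were called lower, with a median log2FC of -0.77. Of all 9 members, 6 had both Day 16 libraries below Day 12 in CPM, against 41.0% of all tested genes. Of 7 primitive streak genes, 3 were tested, with a median log2FC of -0.97, and edgeR called 0 of them, with 1 lower at an unadjusted p under 0.05 and 0 calls by DESeq2. Of 13 fetal growth genes tested, 4 were called higher and 3, LIN28A among them, lower, with a median log2FC of 0.24. Without 1 static library 2 or 3 were higher and 1 or 2 lower, and with all 12 libraries in the model 0 and 1. The fetal growth factor IGF2 rose from 187 and 197 to 342 and 316 FPKM (log2FC 0.89 ± 0.13, adjusted p = 0.000772) and DLK1 from 9.79 and 9.78 to 31.7 and 25.0 (log2FC 1.66 ± 0.23, adjusted p = 0.000552). Of 13 neural genes, 7 were tested, and 4 were called higher and 0 lower, with 4 and 0 at an unadjusted p under 0.05 and by DESeq2, and 1 higher with all 12 libraries in the model. STMN2, a microtubule regulator of neurons, went from 3.18 and 3.02 to 19.1 and 20.6 FPKM (log2FC 2.79 ± 0.18, adjusted p = 1.75e-05) and MAP2 from 0.21 and 0.32 to 1.9 and 2.09 (log2FC 3.02 ± 0.31, adjusted p = 7.55e-05), while SOX1 and NEUROD1, which define neural precursors and neurons, were at 0.01 FPKM or lower. STMN2 and MAP2 were called in each of the 4 fits that left out 1 static library.

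Part of the cell cycle list rose. Of 32 cell cycle genes, 8 were called higher and 0 lower, with 12 and 0 at an unadjusted p under 0.05 and 8 and 0 by DESeq2. This is 25.0%, against 18.7% of all tested genes called and 10.1% called higher. The 8 were MCM3, MCM4, MCM5, MCM6, MCM7, PCNA, RRM2 and TYMS. PCNA, the sliding clamp of replication, went from 22.3 and 26.04 to 39.1 and 48.9 FPKM (log2FC 0.97 ± 0.18, adjusted p = 0.00342), and TYMS, which makes thymidylate, from 8.79 and 8.28 to 12.4 and 14.03 (log2FC 0.74 ± 0.16, adjusted p = 0.00718). The proliferation marker MKI67 was at 6.02 and 6.99 and then at 6.87 and 7.23 FPKM (adjusted p = 0.394), and TOP2A was at 15.3 and 17.5 and then at 18.0 and 17.5 (adjusted p = 0.487). The list as a whole had a median log2FC of 0.41, and of 0.77 in P-DF cells over the same days. The difference between the 2 cultures was called for 0 of these genes, with 2 smaller in static culture at an unadjusted p under 0.05. PCNA alone was called with all 12 libraries in the model, and 1, 2, 4 and 4 were called without Day 12 replicate 1, Day 12 replicate 2, Day 16 replicate 1 and Day 16 replicate 2, against 4 with total counts, 19 with only the 4 static libraries and 18 with only the 8 static and P-DF libraries.

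Cholesterol synthesis and uptake rose as a group. Cells raise these genes together, through the SREBP2 factor, when membrane sterol is low. Of 17 genes, 15 were called higher and 0 lower, with 1 lower at an unadjusted p under 0.05 and 14 and 0 by DESeq2, and the median log2FC was 0.79. HMGCS1, the synthase at the start of the pathway, went from 32.0 and 30.1 to 69.2 and 63.9 FPKM (log2FC 1.22 ± 0.20, adjusted p = 0.00163). STARD4, a carrier of sterol inside the cell, changed most, from 15.8 and 15.7 to 43.7 and 55.9 FPKM (log2FC 1.76 ± 0.17, adjusted p = 5.57e-05). The Day 12 libraries were nearly equal in both genes, and every Day 16 value was above them. MSMO1, IDI1 and INSIG1 rose by 1.06 to 1.15 on the log2 scale. DHCR7 was not called, and SC5D was at 27.7 and 26.2 and then at 20.5 and 18.1 FPKM (adjusted p = 0.0771). The total count scaling called 14 higher and SC5D lower. The 12-library model called 4 higher, HMGCS1, IDI1, INSIG1 and LSS, and 0 lower, with 15 and 0 at an unadjusted p under 0.05, and 8, 8, 8 and 14 were called higher without Day 12 replicate 1, Day 12 replicate 2, Day 16 replicate 1 and Day 16 replicate 2.

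**Figure D3:**
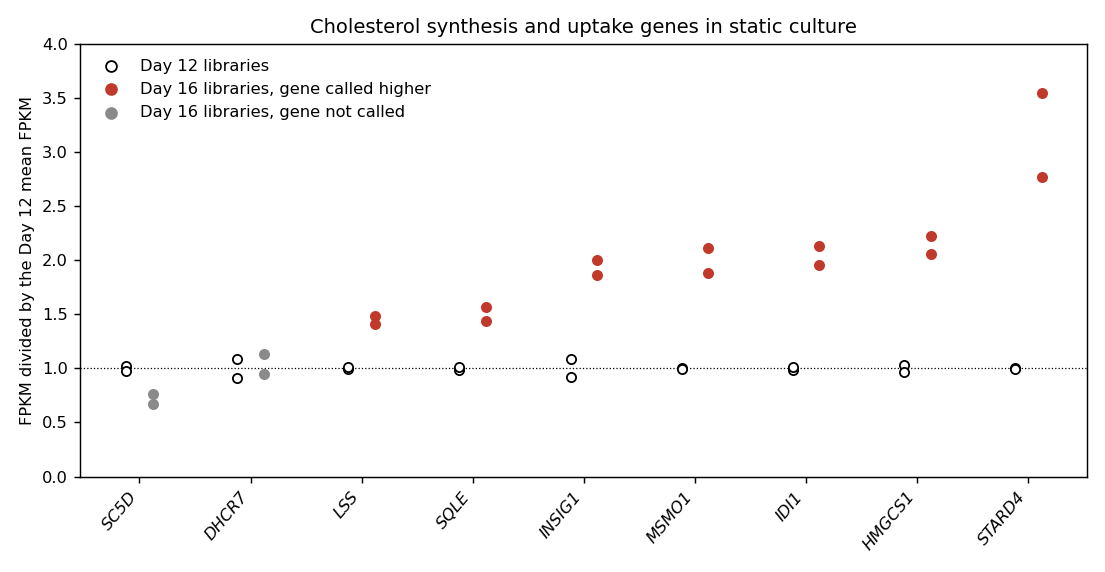
FPKM of the 9 named cholesterol genes in each static library, divided by the mean of the Day 12 libraries of the same gene (vertical axis, starting at 0); open points are Day 12 libraries, red points are Day 16 libraries of genes called higher and grey points are Day 16 libraries of genes without a call. All 7 called genes plotted have both Day 16 libraries above both Day 12 libraries, which in CPM holds for 24.6% of all tested genes.

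Promoters of this group are shown because most hold the CCAAT box bound by NF-Y, a factor that acts beside SREBP2. The letters CCAAT on either strand were found in the 250 bases before the start site of 9 of the 11 genes with a window (81.8%), against 34.3% of the 12715 tested genes. The 200 bases before the start sites of HMGCS1 (chr5:43313413-43313612, minus strand) and STARD4 (chr5:111512536-111512735, minus strand) are printed with the matches in capitals, as ATTGG where the match is on the other strand.
HMGCS1: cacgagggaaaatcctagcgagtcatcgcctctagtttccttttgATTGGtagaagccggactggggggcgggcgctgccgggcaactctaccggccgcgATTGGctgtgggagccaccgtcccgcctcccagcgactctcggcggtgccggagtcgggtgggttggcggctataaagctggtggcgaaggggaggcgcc
STARD4: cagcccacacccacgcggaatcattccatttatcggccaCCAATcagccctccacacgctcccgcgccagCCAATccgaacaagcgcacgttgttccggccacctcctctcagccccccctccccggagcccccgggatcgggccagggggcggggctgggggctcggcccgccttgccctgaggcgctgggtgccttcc
Each of these windows holds 2 matches. The same letters were in 20 of 24 cell cycle promoters (83.3%), in 9 of 19 hepatic secreted promoters (47.4%) and in 3 of 13 stromal promoters (23.1%). The letters TCACNCCAC, a sterol regulatory element, were in 0 of the 11 cholesterol windows and in 0.857% of all windows, which says only that these letters are not in the 250 bases searched. The letters TATAAA and TTTGAA were also searched, and no result is drawn from them.

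Few genes of the respiratory chain (5.56%) and of the TCA cycle (4.35%) were called after TMM scaling, against 18.7% of all tested genes. Of 36 respiratory chain genes, 2 were called lower and 0 higher, with 7 and 2 at an unadjusted p under 0.05 and 1 and 0 by DESeq2. Of 23 TCA cycle genes, MDH2 was called lower, from 75.4 and 75.5 to 57.0 and 50.9 FPKM (log2FC -0.37 ± 0.11, adjusted p = 0.0403). ATP5F1B, the catalytic subunit of ATP synthase and the most abundant of the respiratory genes, was at 562 and 549 and then at 473 and 416 FPKM (adjusted p = 0.273). In fatty acid oxidation 4 of 22 genes were called lower and 1 higher, which is 22.7% against 18.7% of all tested genes. PDK4, which holds back glucose oxidation, fell from 19.9 and 19.4 to 7.11 and 7.19 FPKM (log2FC -1.35 ± 0.21, adjusted p = 0.00121), and PPARGC1A, a coactivator of mitochondrial genes, fell from 19.2 and 17.7 to 11.6 and 10.9 (log2FC -0.60 ± 0.11, adjusted p = 0.00236). CD36, a fatty acid transporter, rose from 0.34 and 0.28 to 1.00 and 0.82 FPKM (adjusted p = 0.00283). In glycolysis, the glucose transporter SLC2A3 and the kinase PDK1 were called lower and LDHA, lactate dehydrogenase, higher among 20 genes. SLC2A3 went from 60.8 and 49.5 to 26.5 and 25.3 FPKM (log2FC -0.98 ± 0.12, adjusted p = 0.00028). Over these lists and the hypoxia list, 3 of 114 genes were called higher and 10 lower, and the total count scaling called 2 higher and 29 lower, so the number of falls depended on the scaling. With all 12 libraries in the model, PDK4, ACADVL and SLC2A3 were called lower and 0 genes higher, with 8 and 3 at an unadjusted p under 0.05.

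SFRP2, a secreted WNT antagonist of stroma, went from 0.42 and 0.52 to 2.78 and 6.02 FPKM (log2FC 3.31 ± 0.42, adjusted p = 0.000316), and SFRP5, an antagonist found in foregut and epicardium, from 20.3 and 32.4 to 36.5 and 56.6 (log2FC 0.92 ± 0.21, adjusted p = 0.0113). LEF1, a nuclear effector of the pathway, fell from 26.6 and 30.2 to 11.8 and 14.8 FPKM (log2FC -0.99 ± 0.16, adjusted p = 0.00122). Of 13 WNT genes tested, 4 were called higher, SFRP1, SFRP2, SFRP5 and FRZB, and 3 lower, LEF1, TCF7 and NKD1. Each fit without 1 static library called 2 higher and 1 lower, and the model of all 12 libraries 0 and 0, with 2 and 3 at an unadjusted p under 0.05, while DESeq2 called 4 and 3. Of 15 amino acid stress genes, 4 were called higher and 1, SLC7A11, lower. ATF3, a stress-induced factor, went from 16.9 and 11.9 to 51.5 and 42.4 FPKM (log2FC 1.82 ± 0.20, adjusted p = 9.78e-05). Of 13 interferon and antigen presentation genes, 1 was called higher and 0 lower, with 4 and 1 at an unadjusted p under 0.05 and 1 and 0 by DESeq2.

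The last comparison asked where the 4 days in static culture differed from the same 4 days in P-DF cells. The difference of the changes was tested as an interaction of day and culture. It was called for 1568 of 19145 genes (8.19%), 841 (4.39%) with a larger log2FC in static culture and 727 (3.8%) with a smaller one, and for 94 genes (0.482%) with all 12 libraries in the model.

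In the cardiac lists, 4 of 77 genes had a larger and 18 a smaller log2FC in static culture. These counts were 1 and 8 without Day 12 replicate 1, 1 and 12 without Day 12 replicate 2, 4 and 24 without Day 16 replicate 1, 3 and 13 without Day 16 replicate 2, and 0 and 2 with all 12 libraries in the model, where 1 and 11 had an unadjusted p under 0.05. TNNI3, the adult troponin I, stayed between 4.31 and 9.15 FPKM in static culture and went from 4.59 and 3.11 to 32.4 and 31.2 in P-DF cells (interaction -3.40 ± 0.40, adjusted p = 0.000369). HOPX, a cofactor of maturing muscle, stayed between 0.69 and 1.30 FPKM in static culture and had a log2FC of 5.44 in P-DF cells (interaction adjusted p = 4.57e-05). MYL7 fell in static culture and went from 2199 and 2283 to 3740 and 3646 FPKM in P-DF cells (interaction -1.57, adjusted p = 0.000687). PLN rose in both cultures, from 174 and 179 to 905 and 1038 FPKM in P-DF cells, and rose less in static culture (interaction -1.48, adjusted p = 0.00256). MYH6 fell in both, to 109 and 71.0 FPKM in P-DF cells, and fell less in static culture (interaction 2.28, adjusted p = 0.00166). For MYH7 and MYL2 the interaction was not called (adjusted p = 0.105 and 0.352), while their Day 16 levels in P-DF cells were 2613 and 2340.2 FPKM and 1662 and 1360.3 FPKM. The test of MYL2 carries the wide gap between the static Day 16 libraries.

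Stromal genes went the other way. In 7 of 19 the log2FC was larger in static culture and in 0 smaller, with 10 and 2 at an unadjusted p under 0.05 and 7 and 1 by DESeq2, and 0 and 0 were called with all 12 libraries in the model, with 5 and 1 at an unadjusted p under 0.05. COL1A2, a collagen I chain, rose from 93.9 and 102 to 169 and 182 FPKM in static culture and went from 15.2 and 11.2 to 3.65 and 4.26 in P-DF cells (interaction 2.43, adjusted p = 0.000155). FBN1, LOX and TNC showed the same opposition of signs, with an interaction of 1.97, 2.53 and 3.68. FN1 had a log2FC of -0.43 in static culture and of -1.99 in P-DF cells (interaction 1.56, adjusted p = 0.000688). In the endothelial list 1 gene had a larger and 1 a smaller log2FC in static culture. KDR fell in both cultures, to 14.97 and 13.3 FPKM in P-DF cells (interaction 1.54, adjusted p = 0.00159). CDH5 was at 0.07 FPKM or lower in P-DF cells on both days, and TEK, FLT1 and PLVAP at 0.26 or lower.

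**Figure D4:**
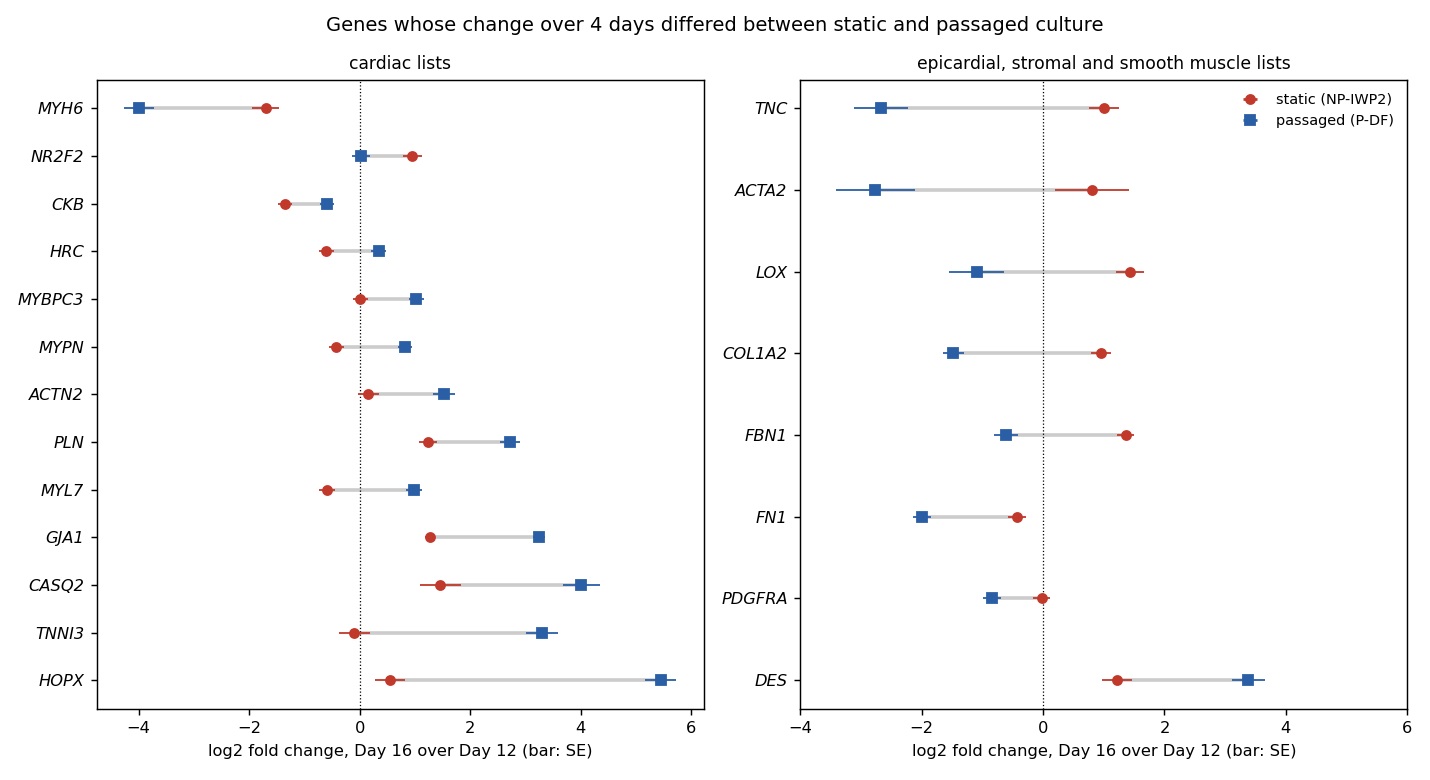
Log2 fold change of Day 16 over Day 12 (horizontal axis, bars are SE) in static NP-IWP2 culture (red circles) and in passaged P-DF culture (blue squares) for members of the cardiac lists (left, 13 of 22 genes) and of the epicardial, stromal and smooth muscle lists (right, 8 of 12 genes) whose interaction was called, limited to genes named in the text with a summed mean of at least 0.2 FPKM in P-DF cells. In the left panel the static change of TNNI3 is near 0 while the passaged change is 3.30, and in the right panel TNC, COL1A2, LOX and FBN1 rise in static culture and have negative values in passaged culture.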

How the data were processed

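Total RNA of H1 cells was sequenced with 2 libraries for each of 3 cultures on Day 12 and Day 16. Per the labels, the submitters' processing notes name cutadapt 1.9.1, HISAT2 2.0.1, HTSeq 0.6.1, DESeq2 and build hg38. The labels name a cDNA kit for low input and a kit for long-read libraries, and the sequencer is not given in the sources used here. The authors deposited 1 table with raw counts per Ensembl gene, not normalized, and with FPKM, which equal the deposited count divided by gene length and by the library total in 100.0% of the values. Of 61806 rows, 20417 have no symbol. Gene positions equalled those of GENCODE v44 on hg38 in 98.18% of shared genes. Whether counting used strand is not stated, so reads of overlapping or antisense genes may be mixed.

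Counts were tested with edgeR 4.0.16 in R 4.3.3 (TMM, filterByExpr, quasi-likelihood test, Benjamini-Hochberg adjusted p under 0.05 over all genes tested) on 10 libraries in 5 groups, without the Day 12 P-IWP2 group. A count of 0 was read as up to 3 counts, which are 0.157 to 0.187 CPM in the static libraries and cover counting error only. Alternatives were all 12, only 8 or only 4 libraries, DESeq2 1.42.0, its size factors, total counts, no filter, a replicate block, limma 3.58.1 on log2(FPKM + 1), and leaving out each static library. Promoter windows came from RefSeq (GRCh38.p14). Tables and figures were made with Python 3.11.15, pandas 2.3.3 and matplotlib 3.10.9.

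The members, gene lists, motifs and the 10-library model were chosen with earlier results of these data known. Genes were named by 3 rules: in each list, the 3 with the highest FPKM and the 3 with the largest and the 3 with the smallest log2FC; over all genes with at least 1 FPKM, calls in both models and no overlap, the 12 largest rises and 12 largest falls; and a set of lineage markers (TNNT2, NKX2-5, MYH6, MYH7, MYL2, MYL7, AFP, WT1, DCN, PECAM1 and CDH5). The other genes named were chosen after their values were seen: ACTN2, ANKRD1, APOA4, APOC3, APOH, CNN1, COL1A2, COL6A3, CORIN, CSRP3, EMCN, ERG, ESAM, F2, FBN1, FGA, FGB, FLT1, HNF4A, HOPX, IDI1, INSIG1, IRX4, KCNH2, LOX, LSS, LUM, MCM4, MCM5, MCM6, MKI67, MYBPC3, MYPN, PDPN, SQLE, TCAP, TCF7, TNC, TNNI3, TOP2A, TTN, TTR, HBA1, HBG1, NANOG, NEUROD1, POU5F1, PTPRC and SOX1. Some items are not reported here.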

Additional observations from a re-analysis of the deposited data

Results flagged for a closer look

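The change over the 4 days differed between static and P-DF cells, by the interaction of day and culture in edgeR's quasi-likelihood test (adjusted p under 0.05), for 39 of the named genes. The values are static log2FC minus P-DF log2FC. Larger values in static culture were found for ACTA2 3.57, ALDH1A2 6.13, COL1A2 2.43, COL6A3 2.96, CPS1 1.35, EGR3 2.98, FABP1 4.76, FBN1 1.97, FN1 1.56, GPNMB 2.52, KDR 1.54, LIN28A 2.83, LOX 2.53, MYH6 2.28, NKD1 2.87, NR2F2 0.93, PDGFRA 0.82, PHLDA2 5.15, SQLE 1.05 and TNC 3.68. Smaller values were found for ACTN2 -1.36, APOA1 -1.22, CASQ2 -2.55, CKB -0.76, DES -2.16, DLK1 -2.91, GJA1 -1.97, HOPX -4.89, HRC -0.94, HSPB3 -1.06, IGF2 -1.54, LDHA -0.75, MRC1 -3.52, MYBPC3 -1.01, MYL7 -1.57, MYPN -1.24, OR7E13P -3.50, PLN -1.48 and TNNI3 -3.40. The causes of these differences were not tested. MRC1 and OR7E13P fell to few counts in static culture, so their size is uncertain. The size for ALDH1A2 is uncertain too. It had 8 counts on static Day 12, and its P-DF means were 0.065 FPKM on Day 12 and 0.02 on Day 16. P-DF cells differ from static culture in both passaging and IWP2. Passaging here can include the split on replating and the ROCK inhibitor Y27632, which cannot be told apart from it. The P-IWP2 libraries, which differ from static culture by passaging and from P-DF cells by IWP2, were not compared here.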

How the results depend on the processing

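The number of genes called between days, 3581, was 386 with all 12 libraries in the model and between 1160 and 2489 when 1 static library was left out, lowest without Day 12 replicate 1. The interaction calls, 1568, became 94 with all 12 libraries, 2447 without the filter, 2380 with only 8 libraries and 658 to 1405 when 1 library was left out, lowest without Day 12 replicate 1. Of 168 calls in the lists, 23 were made with all 12 libraries and 87 to 143 when 1 library was left out, lowest without Day 12 replicate 2. Of 137 named genes called, 44 were called with all 12 libraries. The cause of these moves was not tested, and leaving out a library leaves a day with 1 library assumed to vary like the other groups. No called gene among those named changed direction in any alternative. Uncalled genes that did had these log2FC ranges when 1 static library was left out: ACTN2 -0.23 to 0.46, CKM -0.55 to 0.12, DHCR7 -0.024 to 0.35, F2 -0.48 to 0.20, FLT1 -0.48 to 0.042, HAND1 -0.24 to 0.023, HNF4A -0.66 to 0.31, HOPX -0.007 to 0.94, MYBPC3 -0.16 to 0.16, NKX2-5 -0.047 to 0.11, PDGFRA -0.10 to 0.056, TEK -0.10 to 0.047 and TNNI3 -0.82 to 0.37. MYBPC3 was also at -0.11 with limma, -0.005 with only 4 libraries and -0.11 with total counts, and NKX2-5 at -0.083 with limma and -0.085 with total counts. Over all genes, same-numbered libraries showed little shared deviation (correlation 0.091 in NP-IWP2 and -0.0037 in P-DF). That value does not show whether the genes of 1 lineage deviate together. In static culture, replicate 2 exceeded replicate 1 on both days in TBX18, TCF21 and WT1. The reverse order was seen on both days in AFP, LUM and DCN. With a replicate block 2757 genes were called between days and 1252 for the interaction.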
